A study of Mus musculus with 9 samples.

Results

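Rela, Relb, Rel, Nfkb1 and Nfkb2 (the subunits of the transcription factor NF-kappaB), Nfkbia, Nfkbie and Tnfaip3 (inhibitors of the pathway), Map3k14 (an upstream kinase) and Icam1 (a target gene) are followed here over 9 expression arrays of sorted mouse thymic cells. The 10 genes were named by symbol, and each was measured by the probe sets that carry that symbol alone; a probe set is a group of short oligonucleotides read out together as a single value, and some can match several transcripts. There were 17 such probe sets for 9 of the 10 genes, among 18194 genes tested, and the probe set with the highest mean log2 intensity stood for the gene. Nfkb1 is not analysed here.

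The arrays came from 3 groups of 3 samples, named in the titles as ZsG plus, ZsG minus mTEC and ZsG minus cTEC. ZsG is ZsGreen, a green fluorescent protein, and mTEC and cTEC usually stand for medullary and cortical thymic epithelial cells. All 3 groups share a C57BL/6 background, and the labels describe, for the series as a whole, mice of 8 to 20 weeks with a bacterial artificial chromosome that places the reporter at the ATG of Tslp. Such a transgene reports the regulatory sequence it carries, and how many lines were used is not stated here. From each sample 5 ng of total RNA was amplified. The labels do not describe the gates of the sort, so ZsG plus cells have no stated cortical or medullary origin. All 9 samples carry keratinocytes as their cell type label, at odds with the titles, which were followed for the grouping. Whether replicates are different mice is not stated, so the p-values reflect spread among samples that may be technical.

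NF-kappaB factors are pairs of Rel-family subunits that are held in the cytoplasm until a signal frees them. In the canonical branch the IkappaB kinase complex marks inhibitors such as IkappaB alpha (Nfkbia) and IkappaB epsilon (Nfkbie) for destruction, which frees pairs containing RelA or c-Rel. In the non-canonical branch the kinase NIK (Map3k14) drives the processing of the p100 product of Nfkb2 to p52, which partners RelB. Receptors of the TNF family, among them RANK, CD40 and the lymphotoxin beta receptor, feed the non-canonical branch in the thymic medulla, and mice without Relb or functional Map3k14 have a poorly formed medulla. Nfkbia, Tnfaip3 and Nfkb2 are themselves transcribed under NF-kappaB, so that the pathway builds its own brakes.

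The promoters of 3 of these genes are shown for the following reasons: Nfkbia and Icam1 averaged highest in ZsG plus cells and lowest in ZsG minus cTEC, and Tnfaip3 averaged highest in ZsG minus cTEC. Nfkb2 had the order of Nfkbia and Icam1, and Relb also averaged highest in ZsG minus cTEC, but neither promoter is shown. The sequences are from RefSeq with the mouse build GRCm38.p6 and run from 250 bases before the transcript start to 50 bases after it, 5' to 3' on the strand of the gene. Capitals mark matches, on either strand, to the decamer consensus of kappaB sites, searched by a script. The windows lie at chr12:55492598-55492897 on the minus strand for Nfkbia, at chr10:19015361-19015660 on the minus strand for Tnfaip3 and at chr9:21015690-21015989 on the plus strand for Icam1.
Nfkbia: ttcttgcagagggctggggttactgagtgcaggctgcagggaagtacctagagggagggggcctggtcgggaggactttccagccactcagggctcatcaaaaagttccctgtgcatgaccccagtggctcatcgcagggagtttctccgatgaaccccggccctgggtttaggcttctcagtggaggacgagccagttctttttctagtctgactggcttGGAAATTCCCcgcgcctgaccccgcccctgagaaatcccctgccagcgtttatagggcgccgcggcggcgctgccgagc
Tnfaip3: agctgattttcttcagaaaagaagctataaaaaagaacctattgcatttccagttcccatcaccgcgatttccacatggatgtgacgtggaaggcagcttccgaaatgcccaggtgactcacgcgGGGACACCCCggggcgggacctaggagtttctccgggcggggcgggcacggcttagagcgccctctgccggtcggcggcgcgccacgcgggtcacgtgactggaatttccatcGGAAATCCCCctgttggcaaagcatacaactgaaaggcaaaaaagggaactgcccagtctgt
Icam1: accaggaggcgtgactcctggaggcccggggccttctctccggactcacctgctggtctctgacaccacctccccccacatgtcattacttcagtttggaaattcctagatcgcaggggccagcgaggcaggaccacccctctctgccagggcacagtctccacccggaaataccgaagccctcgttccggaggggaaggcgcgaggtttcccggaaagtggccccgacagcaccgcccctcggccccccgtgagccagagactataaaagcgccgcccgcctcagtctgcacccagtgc

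In the Nfkbia window the matching stretch begins 29 bases before the start and reads GGGAATTTCC on the minus strand of the gene. Of 2 Tnfaip3 windows, the one shown was chosen because it holds matches, and the other has 0. The window shown holds 2 separate stretches, which begin 125 and 12 bases before the start and read GGGACACCCC on the plus strand and GGGGATTTCC on the minus strand. These letters are not in the Icam1 window, which says nothing about binding there. Windows were held for 8 of the 10 genes, 11 windows in all counting alternative starts, and 7 of the 11 windows, from 5 genes (Rel, Nfkb2, Nfkbia, Nfkbie and Tnfaip3), contained the consensus. Overlapping windows of Nfkb2 hold the same GGGACTTTCC, which is thus counted more than once. The windows of Rela, Map3k14 and Icam1 did not. Of all 32851 RefSeq promoter windows of 300 bases, 8.5% held a match and 0.52% held at least 2 separate stretches. A match is a description of the letters and not evidence of a bound site.

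Several features of the arrays bear on every value below. The ZsG plus arrays agreed less with each other (r of log2 intensity 0.584 to 0.656) than the ZsG minus mTEC arrays (0.808 to 0.82) or the ZsG minus cTEC arrays (0.823 to 0.865), and the median SD of a gene was 1.3, 0.63 and 0.61 on the log2 scale in the 3 groups. Median intensity was 230.3 to 316 on ZsG plus arrays, 365.7 to 423.6 on ZsG minus mTEC arrays and 375.6 to 403.6 on ZsG minus cTEC arrays. The 3' to 5' intensity ratio of Gapdh, a sign of RNA length, was 6.71 to 10.6 for ZsG plus samples, against 4.545 to 5.968 for the 6 ZsG minus samples, whereas that of Actb overlapped, at 0.7956 to 1.21 for ZsG plus and 0.8745 to 1.137 for the ZsG minus samples. Aire, the regulator of self-antigen expression in the medulla, averaged 16990 intensity units in ZsG plus, against 19854 units in ZsG minus mTEC and 1973 units in ZsG minus cTEC, and Prss16, a cortical serine protease, averaged 1173, 2963 and 48742 units in the same groups; both differed from ZsG minus cTEC in each of the other groups (limma adjusted p 0.0117 to 0.0451). Tslp itself, with 1 probe set, read 525.7, 23.4 and 953.4 units on the ZsG plus arrays, of which the lowest lay below and the highest above all 6 ZsG minus readings of 88.8 to 576.3 units (log2 difference -0.61 ± 1.3 from ZsG minus mTEC and -0.07 ± 1.3 from ZsG minus cTEC, SE). Intensities come from pooled sorted cells, so fewer cells of a type and less RNA per cell cannot be told apart.

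None of the 9 measured genes passed the threshold of 0.05 for the adjusted p in any of the 3 comparisons by limma (0 of 9 each; smallest adjusted p 0.511, 0.263 and 0.425 for ZsG plus against ZsG minus mTEC, ZsG plus against ZsG minus cTEC, and ZsG minus mTEC against ZsG minus cTEC). With an unadjusted p under 0.05, 0, 1 and 0 members were counted, the 1 being Tnfaip3, with a negative difference between ZsG plus and ZsG minus cTEC. Among all genes, 0.0165% passed the adjusted threshold upward and 0.203% downward for ZsG plus against ZsG minus mTEC, and 3.2% and 10.2% had an unadjusted p under 0.05. For ZsG plus against ZsG minus cTEC these shares were 0.599% and 1.14%, and 7.44% and 11.3%. Between ZsG minus mTEC and ZsG minus cTEC they were 0.528% and 0.0989%, and 8.4% and 3.9%. With 9 genes, shares of this size leave a count of 0 near the background. The 95% intervals were wide: the narrowest, of Nfkbia, spanned 2.24 log2 units and the widest, of Relb, spanned 3.10.

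**Figure D1:**
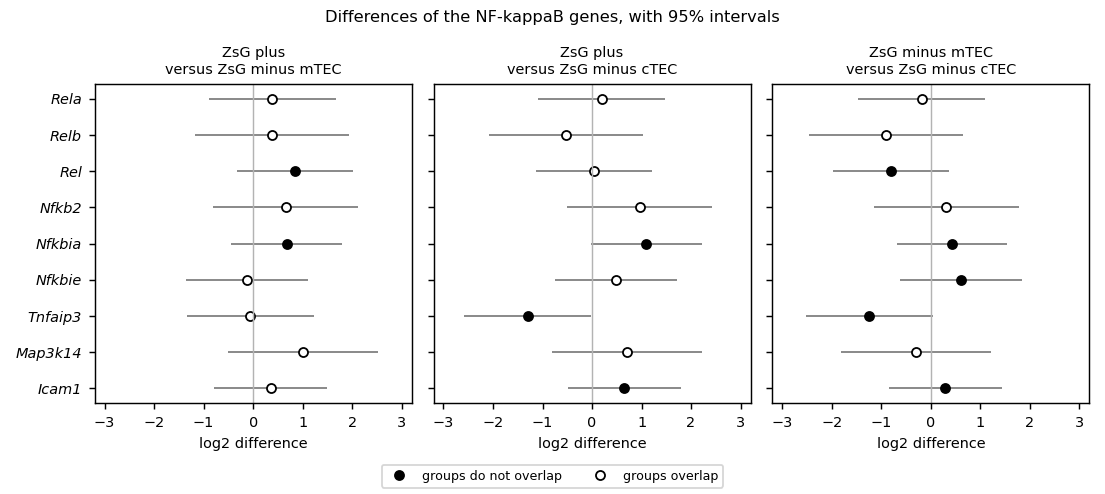
Log2 differences of the 9 measured NF-kappaB genes (rows) in the 3 comparisons (panels), as points with 95% intervals from the limma fit; filled points mark genes whose 3 arrays in each group do not overlap. Of the 27 intervals, only that of Tnfaip3 between ZsG plus and ZsG minus cTEC leaves out 0 (-2.59 to -0.01).

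As a weaker description, the 3 arrays of a group can be set against the 3 of another. Rel and Nfkbia read higher on every ZsG plus array than on every ZsG minus mTEC array, and 0 members read lower throughout, against 5.77% of all genes higher and 12.3% lower. Nfkbia and Icam1 read higher on every ZsG plus array than on every ZsG minus cTEC array and Tnfaip3 read lower, against 9.9% and 13.4% of all genes. Nfkbia, Nfkbie and Icam1 read higher on every ZsG minus mTEC array than on every ZsG minus cTEC array, and Rel and Tnfaip3 read lower, against 16.6% and 11.8%. The comparisons share arrays and are not independent. Leaving out a single array moved the number of higher members between ZsG plus and ZsG minus mTEC to 4 (without ZsG plus replicate 1 or 2) and for ZsG plus against ZsG minus cTEC to 4 (without ZsG minus cTEC replicate 2). Without ZsG plus replicate 3, whose marker readings are given below, these counts were 2 higher and 0 lower against ZsG minus mTEC, and 2 higher and 1 lower against ZsG minus cTEC. Scaling moved them as well: for ZsG plus against ZsG minus mTEC they were 0 and 0 after quantile normalization and 4 and 0 with arrays centred on their medians, and against ZsG minus cTEC they were 1 and 1, and 3 and 0. For ZsG minus mTEC against ZsG minus cTEC they were 2 and 2 after quantile normalization, and 0 and 3 after centring, which left none of Nfkbia, Nfkbie and Icam1 without overlap.

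Over the 9 arrays, the highest reading of a gene lay on a ZsG plus array for 6 members, on a ZsG minus cTEC array for 3 and on a ZsG minus mTEC array for 0. ZsG plus replicate 3 held the highest reading of 3 members (Rela, Nfkbia and Icam1), as did ZsG minus cTEC replicate 2 (Relb, Rel and Tnfaip3). The lowest reading lay on a ZsG plus array for 2 members, on a ZsG minus mTEC array for 3 and on a ZsG minus cTEC array for 4.

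**Figure D2:**
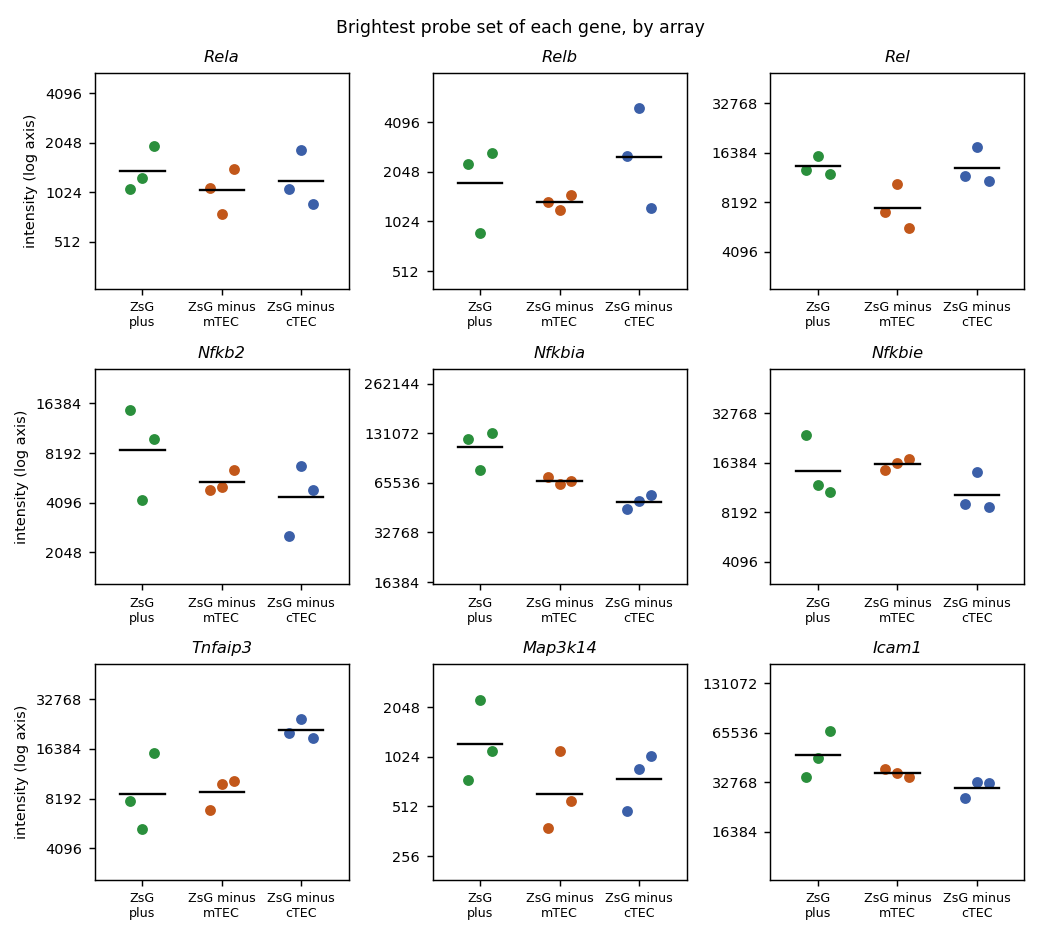
Intensity of the brightest probe set of each measured NF-kappaB gene (panels, log axis) on the 3 arrays of ZsG plus, ZsG minus mTEC and ZsG minus cTEC, from left to right; points are arrays and bars are geometric means. Nfkbia stands at 107753, 67602 and 50339 units in these groups and Tnfaip3 at 8676, 9029 and 21359 units.

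Among the subunits, Rel had the clearest pattern. Rel (probe set 1420710_at) encodes c-Rel, a canonical subunit. It read 12947, 15665 and 12211 units in the 3 ZsG plus samples, against 7162, 10519 and 5717 units in ZsG minus mTEC and 11819, 17632 and 10974 units in ZsG minus cTEC. The ZsG minus mTEC arrays were therefore the low ones, with no overlap with either other group, while ZsG plus and ZsG minus cTEC overlapped. The log2 difference from ZsG minus mTEC was 0.84 ± 0.52 in ZsG plus (SE, 95% interval -0.34 to 2.02, limma adjusted p = 0.511), that is 1.79-fold. It was 0.04 ± 0.52 for ZsG plus against ZsG minus cTEC (-1.14 to 1.22, adjusted p = 0.977, and -0.25 after quantile normalization), and for ZsG minus mTEC against ZsG minus cTEC -0.80 ± 0.52 (-1.98 to 0.37, adjusted p = 0.631).

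Nfkb2 (1429128_x_at) encodes p100, the precursor of p52 and, uncut, an inhibitor of RelB. It read 14870, 4263 and 9969 units in the 3 ZsG plus samples, against 4909, 5127 and 6439 units in ZsG minus mTEC and 2563, 6872 and 4876 units in ZsG minus cTEC. The groups overlapped because ZsG plus replicate 2 was as low as the other groups. The log2 difference came to 0.65 ± 0.65 between ZsG plus and ZsG minus mTEC (adjusted p = 0.678), 0.96 ± 0.65 between ZsG plus and ZsG minus cTEC (adjusted p = 0.461) and 0.31 ± 0.65 between ZsG minus mTEC and ZsG minus cTEC (adjusted p = 0.946). Without ZsG plus replicate 2 the difference from ZsG minus mTEC was 1.16 ± 0.60 and that from ZsG minus cTEC 1.46 ± 0.60.

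The second Nfkb2 probe set, 1425902_a_at, gave a different spread. It read 2113, 2588 and 21874 units in the 3 ZsG plus samples, against 2252, 3376 and 3943 units in ZsG minus mTEC and 1634, 1748 and 1587 units in ZsG minus cTEC. Here the lowest group was ZsG minus cTEC, below every array of both other groups, and ZsG plus replicate 3 stood far above the rest. The log2 differences from ZsG minus cTEC were 1.57 ± 0.88 for ZsG plus and 0.91 ± 0.88 for ZsG minus mTEC, neither past the threshold.

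Relb (1417856_at), the non-canonical partner of p52, read 2280, 876.3 and 2645 units in the 3 ZsG plus samples, against 1345, 1206 and 1479 units in ZsG minus mTEC and 2559, 4984 and 1242 units in ZsG minus cTEC. All groups overlapped, and the spread inside ZsG plus and ZsG minus cTEC (SD 0.86 and 1.0 on the log2 scale) was far above that inside ZsG minus mTEC (SD 0.15). The log2 differences were 0.38 ± 0.69 between ZsG plus and ZsG minus mTEC, -0.53 ± 0.69 between ZsG plus and ZsG minus cTEC and -0.91 ± 0.69 between ZsG minus mTEC and ZsG minus cTEC (adjusted p 0.709 to 0.835). The last interval ran from -2.46 to 0.64.

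Rela (1419536_a_at), the main canonical subunit, read 1067, 1248 and 1943 units in the 3 ZsG plus samples, against 1086, 752.4 and 1425 units in ZsG minus mTEC and 1070, 1848 and 866.8 units in ZsG minus cTEC. The 3 groups overlapped throughout. Its log2 differences were 0.38 ± 0.57, 0.20 ± 0.57 and -0.19 ± 0.57 in the 3 comparisons (adjusted p 0.791 to 0.972), and the intervals reached from -1.47 to 1.67.

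Map3k14, the kinase that starts the non-canonical branch, was read differently by its 2 probe sets. The brighter, 1422999_at, read 735.8, 2265 and 1113 units in the 3 ZsG plus samples, against 379.2, 1105 and 550.2 units in ZsG minus mTEC and 481.9, 859.8 and 1035 units in ZsG minus cTEC. Its log2 difference came to 1.00 ± 0.67 between ZsG plus and ZsG minus mTEC (-0.51 to 2.52, adjusted p = 0.539), 0.70 ± 0.67 between ZsG plus and ZsG minus cTEC (adjusted p = 0.609) and -0.30 ± 0.67 between ZsG minus mTEC and ZsG minus cTEC (adjusted p = 0.951). All groups overlapped. The other probe set, 1434364_at, read 1982, 28.21 and 1297 units in the 3 ZsG plus samples, against 346.3, 965.2 and 476.3 units in ZsG minus mTEC and 1296, 1255 and 1267 units in ZsG minus cTEC. ZsG plus replicate 2, the highest array for the brighter probe set, was the lowest for this other one, at a reading within the 3.77 to 341 units of spiked control probe sets. It gave log2 differences of opposite sign for ZsG plus, -0.38 ± 1.40 against ZsG minus mTEC and -1.61 ± 1.40 against ZsG minus cTEC, so no direction is given for Map3k14. Between ZsG minus mTEC and ZsG minus cTEC both probe sets gave a negative difference, and on the dimmer one every ZsG minus mTEC array lay below every ZsG minus cTEC array.

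Among the inhibitors, Nfkbia averaged highest in ZsG plus cells on all 5 of its probe sets. Nfkbia encodes IkappaB alpha, the inhibitor that is destroyed and quickly remade when the canonical branch fires. Its brightest probe set, 1420089_at, read 120963, 78577 and 131624 units in the 3 ZsG plus samples, against 71332, 64351 and 67304 units in ZsG minus mTEC and 45458, 50623 and 55432 units in ZsG minus cTEC. No array of a group overlapped another group. The log2 difference was 1.10 ± 0.50 between ZsG plus and ZsG minus cTEC (-0.02 to 2.22, adjusted p = 0.274), or 2.14-fold, 0.67 ± 0.50 between ZsG plus and ZsG minus mTEC (-0.45 to 1.79, adjusted p = 0.575), or 1.59-fold, and 0.43 ± 0.50 between ZsG minus mTEC and ZsG minus cTEC (-0.69 to 1.54, adjusted p = 0.851). Over all 19 alternative settings the difference between ZsG plus and ZsG minus cTEC kept its sign, from 0.48 with quantile normalization to 1.55 with arrays centred on their medians, and did not pass the threshold (adjusted p 0.152 to 0.587). The difference between ZsG plus and ZsG minus mTEC ran from 0.09 with quantile normalization to 1.3 with centring.

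The 5 probe sets of Nfkbia read the same gene and are no replicates of each other. Against ZsG minus cTEC all 5 had ZsG plus groups without overlap and differences of 0.97 to 1.77, the largest on 1438157_s_at (46286, 54213 and 101211 units in ZsG plus, against 31699, 31430 and 24801 units in ZsG minus mTEC and 13816, 23868 and 19330 units in ZsG minus cTEC). Between ZsG minus mTEC and ZsG minus cTEC all 5 were again without overlap, with differences of 0.42 to 0.84. Against ZsG minus mTEC 3 of 5 were without overlap and the differences ran from 0.18 to 1.12. When all probe sets were tested, 0 of the 17 member probe sets passed the threshold in any comparison (smallest adjusted p 0.35, 0.156 and 0.518), and 1, 2 and 0 had an unadjusted p under 0.05. Among genes tested by their brightest probe set, the shares under 0.05 were 3.2% higher and 10.2% lower, 7.44% and 11.3%, and 8.4% and 3.9%.

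**Figure D3:**
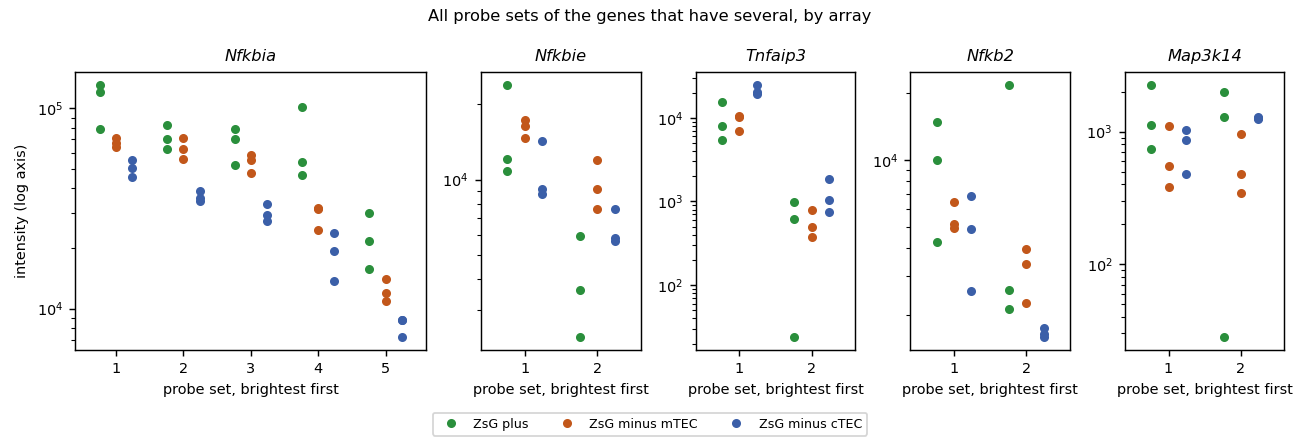
Intensity (log axis) of every probe set of the 5 NF-kappaB genes that have several, ordered from the brightest to the dimmest, with 3 arrays each of ZsG plus, ZsG minus mTEC and ZsG minus cTEC. All 5 Nfkbia probe sets place ZsG minus cTEC lowest, whereas the 2 probe sets of Nfkbie and of Map3k14 place ZsG plus differently.

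Nfkbie encodes IkappaB epsilon, an inhibitor that acts with slower kinetics than IkappaB alpha. Its brighter probe set, 1458299_s_at, read 24015, 12069 and 10830 units in the 3 ZsG plus samples, against 14712, 16310 and 17254 units in ZsG minus mTEC and 9172, 14330 and 8787 units in ZsG minus cTEC. ZsG plus overlapped both other groups, with replicate 1 far above the other ZsG plus arrays, while every ZsG minus mTEC array lay above every ZsG minus cTEC array. The log2 differences were -0.13 ± 0.55 between ZsG plus and ZsG minus mTEC, 0.48 ± 0.55 between ZsG plus and ZsG minus cTEC and 0.61 ± 0.55 between ZsG minus mTEC and ZsG minus cTEC (adjusted p 0.673 to 0.936). Centring turned the first of these to 0.49. The dimmer probe set, 1431843_a_at, read 3602, 5911 and 2339 units in the 3 ZsG plus samples, against 7653, 9201 and 11942 units in ZsG minus mTEC and 5820, 7597 and 5675 units in ZsG minus cTEC. On it every ZsG plus array lay below every ZsG minus mTEC array, with a log2 difference of -1.36 ± 0.58 (adjusted p = 0.35 with all probe sets tested), and the difference from ZsG minus cTEC was -0.78 ± 0.58. Both probe sets agreed for the ZsG minus groups, with 0.61 and 0.58 between ZsG minus mTEC and ZsG minus cTEC, but not on the sign between ZsG plus and ZsG minus cTEC.

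Tnfaip3 stood highest in ZsG minus cTEC. It encodes A20, a ubiquitin-editing enzyme that shuts off signalling upstream of the IkappaB kinases. Its brighter probe set, 1433699_at, read 7884, 5354 and 15472 units in the 3 ZsG plus samples, against 6996, 10064 and 10455 units in ZsG minus mTEC and 20468, 24918 and 19104 units in ZsG minus cTEC. Every cortical array lay above all 6 others, and ZsG plus overlapped ZsG minus mTEC. The log2 difference was -1.30 ± 0.57 between ZsG plus and ZsG minus cTEC (-2.59 to -0.01, adjusted p = 0.263), or 0.406-fold, -1.24 ± 0.57 between ZsG minus mTEC and ZsG minus cTEC (-2.53 to 0.05, adjusted p = 0.425), or 0.423-fold, and -0.06 ± 0.57 between ZsG plus and ZsG minus mTEC (-1.34 to 1.23, adjusted p = 0.973), which turned to 0.57 with arrays centred on their medians. Without ZsG plus replicate 3, the highest of its group, the difference between ZsG plus and ZsG minus cTEC was -1.72 ± 0.48 (adjusted p = 0.103).

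The dimmer Tnfaip3 probe set, 1450829_at, read 970.9, 613.2 and 23.96 units in the 3 ZsG plus samples, against 778.6, 375.4 and 498.9 units in ZsG minus mTEC and 742.5, 1834 and 1025 units in ZsG minus cTEC. It placed ZsG minus cTEC highest on average as well, with overlap among all 3 groups, at -2.20 ± 1.25 for ZsG plus and -1.09 ± 1.25 for ZsG minus mTEC against ZsG minus cTEC. ZsG plus replicate 3, the highest of its group on the brighter probe set, was by far the lowest on this one, at a reading within the 3.77 to 341 units of the spiked control probe sets.

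The ZsG minus cTEC arrays also carried more signal for markers of thymocytes and fibroblasts, other cells of the thymus. Summed over 12 measured thymocyte markers of 13, intensity was 7397 to 9992 units on ZsG plus arrays, 6945 to 11162 on ZsG minus mTEC arrays and 50211 to 65463 on ZsG minus cTEC arrays. Against ZsG minus cTEC, 2 of these 12 passed the threshold as lower in ZsG plus and 1 as lower in ZsG minus mTEC, and all 12 differences were negative in both. Of all genes, 1.14% and 0.0989% passed as lower in these comparisons. Summed over 7 measured fibroblast markers of 8, intensity was 5105 to 25800, 4897 to 7820 and 34740 to 53080 units in the same groups, and 1 of 7 passed the threshold as lower in each of the ZsG plus and ZsG minus mTEC groups. Ptprc, the pan-leukocyte gene, read 3577 to 4219, 2085 to 3163 and 12873 to 14677 units. Between ZsG minus mTEC and ZsG minus cTEC, 11.8% of all genes read lower and 16.6% higher on every array. Of 19 dendritic cell and macrophage markers, 1 (Flt3, -4.27 ± 0.74, limma adjusted p = 0.0485) passed as lower in ZsG minus mTEC than ZsG minus cTEC. On every array 6 of these markers read lower and 1 higher. The part of these cells in the high Tnfaip3 readings was not tested.

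Icam1 (1424067_at, the only probe set) encodes the adhesion molecule ICAM-1, a ligand of the integrin LFA-1 and a classical NF-kappaB target. It read 35346, 46059 and 66879 units in the 3 ZsG plus samples, against 39277, 37188 and 35556 units in ZsG minus mTEC and 26259, 33050 and 32633 units in ZsG minus cTEC. The ZsG minus cTEC arrays were the low ones, below every array of the other 2 groups, and ZsG plus overlapped ZsG minus mTEC through replicate 1. The log2 difference was 0.65 ± 0.51 between ZsG plus and ZsG minus cTEC (-0.49 to 1.79, adjusted p = 0.523), 0.36 ± 0.51 between ZsG plus and ZsG minus mTEC (adjusted p = 0.78) and 0.29 ± 0.51 between ZsG minus mTEC and ZsG minus cTEC (adjusted p = 0.925). Without ZsG plus replicate 3 the first 2 of these were 0.40 ± 0.45 and 0.11 ± 0.45.

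Markers of dendritic cells and macrophages, which express many NF-kappaB target genes, were uneven among the ZsG plus arrays. Summed over 19 measured markers of 20, intensity was 43940, 58983 and 145501 units as lowest, median and highest of ZsG plus, 46682, 53383 and 61964 units of ZsG minus mTEC and 42319, 57683 and 91142 units of ZsG minus cTEC. Bright genes weigh most in such sums: Lyz2 alone read 35523, 19065 and 66337 units on ZsG plus replicates 1, 2 and 3. The highest sum lay on ZsG plus replicate 3, the array with the highest Rela, Nfkbia and Icam1 readings. It was the highest ZsG plus array for 13 of the 19 markers, among them Mpeg1, Tyrobp, Csf1r and Itgax, and the lowest for 3 (Xcr1, C1qc and Fcer1g). The same array had the highest sum of all 9 for epithelial markers (143979 units). So it did for 2 lists given below, immediate early genes (804670 units) and further targets (476259 units). For medullary markers and for receptors and ligands it did not. Of the 19 markers, 0 passed the threshold between ZsG plus and either other group, and 15 differences from ZsG minus mTEC were positive and 9 from ZsG minus cTEC. Against ZsG minus mTEC, 2 were higher and 0 lower at an unadjusted limma p under 0.05 (all genes 3.2% and 10.2%). Against ZsG minus cTEC these were 2 and 1 (7.44% and 11.3%). On every ZsG plus array 6 read higher and 1 lower than on every ZsG minus mTEC array (all genes 5.77% and 12.3%). Flt3, among the 6, read 3023, 2606 and 4765 units against 112.5, 390.7 and 150.4. Against ZsG minus cTEC 2 and 1 did so (9.9% and 13.4%). Some markers read within the 3.77 to 341 units of the spiked control probe sets, Cx3cr1 on every array (22.28 to 287.5 units). Their presence on every array is therefore not shown. Without ZsG plus replicate 3 the median difference of the 9 NF-kappaB genes was 0.13 from ZsG minus mTEC and 0.40 from ZsG minus cTEC. The part of dendritic cells and macrophages in the NF-kappaB readings was not tested.

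Taken over the 9 measured genes, the log2 differences had a median of 0.38 between ZsG plus and ZsG minus mTEC (7 positive, 2 negative), 0.48 between ZsG plus and ZsG minus cTEC (7 and 2) and -0.19 between ZsG minus mTEC and ZsG minus cTEC (4 and 5). The medians of all 18194 genes were -0.33, -0.14 and 0.09. With the mean over all probe sets of a gene the second was 0.04, and the third turned to 0.05, 0.06 and 0.13 without ZsG minus mTEC replicate 1, ZsG minus mTEC replicate 2 and ZsG minus cTEC replicate 2. The medians also moved with the scaling: with each array centred on the median of the genes tested, all genes had medians of 0.30, 0.32 and -0.08, and the NF-kappaB genes 1.01, 0.93 and -0.36. Relative to all genes the NF-kappaB medians were 0.71, 0.62 and -0.28 as deposited, the same after centring, and 0.51, 0.11 and -0.23 after quantile normalization. Among the genes past the threshold, the share with a positive difference for ZsG plus against ZsG minus mTEC was 7.5% as deposited, 26.7% after quantile normalization and 33.3% after centring, and against ZsG minus cTEC 34.4%, 53.2% and 58.3%.

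The differences of all genes varied with brightness. Of the 9 measured genes, Rel, Nfkb2, Nfkbia, Nfkbie, Tnfaip3 and Icam1 had probe sets in the brightest of 10 equal bins of all genes by intensity, where the median difference was -0.02 for ZsG plus against ZsG minus mTEC, 0.06 for ZsG plus against ZsG minus cTEC and 0.04 for ZsG minus mTEC against ZsG minus cTEC. In that bin, 13.5%, 18.1% and 25.7% of genes read higher on every array of the first-named group, and 10.7%, 10.6% and 17.9% read lower. Rela and Map3k14 lay in bin 7, with medians of -0.61, -0.59 and -0.01, and Relb in bin 8, with -0.56, -0.53 and 0.01. Set against these, 4 of the 6 bright members lay above the median of their bin between ZsG plus and ZsG minus mTEC, with Nfkbie and Tnfaip3 below it.

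**Figure D4:**
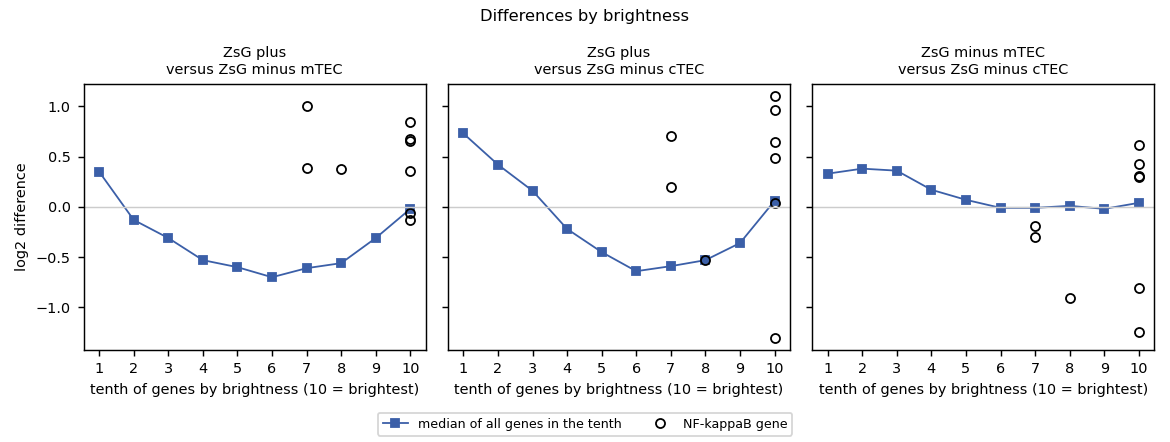
Median log2 difference of all genes in each of 10 bins of brightness (squares, 1 the dimmest and 10 the brightest, about 1820 genes each) and the 9 measured NF-kappaB genes (circles) in the 3 comparisons. For ZsG plus against ZsG minus mTEC the median is -0.70 in bin 6 and -0.02 in bin 10, which holds 6 of the 9 genes.

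Across the 9 arrays the members varied together only in part. Pearson's r of log2 intensity was highest for Nfkb2 with Nfkbia (0.79, Spearman's rho 0.52), Nfkbia with Icam1 (0.77, rho 0.80) and Relb with Tnfaip3 (0.70, rho 0.68), and lowest for Nfkbie with Tnfaip3 (-0.50, rho -0.47) and Nfkbia with Tnfaip3 (-0.47, rho -0.67). These are descriptions over 9 arrays that share their 3 groups and a common scaling. The mean standardised log2 profile of the 9 genes was 0.48, 0.02 and 0.86 in ZsG plus, against -0.50, -0.24 and -0.24 in ZsG minus mTEC and -0.55, 0.56 and -0.38 in ZsG minus cTEC. Among 12202 other genes with a mean intensity over 200, those closest to this profile were Gnl2 (r = 0.897), Actb (0.897), Cd68 (0.893), Nipal4 (0.892) and Rac1 (0.888). They are the top of a ranking of 12202 genes over only 9 arrays. Whether any r exceeds what such a ranking gives by itself was not tested. Cd68, a lysosomal protein used as a macrophage marker, read 2524, 1247 and 3263 units in ZsG plus, against 951.2, 1192 and 1233 units in ZsG minus mTEC and 792.4, 1332 and 820.8 units in ZsG minus cTEC. Actb, cytoplasmic actin, read 130867, 115636 and 170657 units, 81517, 84646 and 82598 units, and 83112, 116925 and 106913 units in the same order.

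The wider pathway was read through 4 further gene lists, in which 4 differences passed the threshold. Of 16 measured receptors and ligands, Tnfrsf11b alone passed, between ZsG plus and ZsG minus cTEC, where 0.599% of all genes passed as higher and 1.14% as lower. The medians of the list were 0.18 between ZsG plus and ZsG minus mTEC, 0.04 between ZsG plus and ZsG minus cTEC and -0.55 between the ZsG minus groups. Tnfrsf11b encodes osteoprotegerin, the soluble decoy that binds RANK ligand. It read 12308, 10681 and 19491 units in the 3 ZsG plus samples, against 5167, 8619 and 11083 units in ZsG minus mTEC and 1361, 1234 and 1828 units in ZsG minus cTEC. The cortical arrays were far below all others, and the log2 difference was 3.24 ± 0.55 in ZsG plus (adjusted p = 0.0334), or 9.42-fold, and 2.44 ± 0.55 in ZsG minus mTEC (adjusted p = 0.0943). The call held under 10 of 19 alternative settings (adjusted p 0.0118 to 0.135), and among fits without a single array it held in the 3 without a ZsG plus array and was lost in the 6 others, with differences of 2.98 to 3.41. Cd40, a receptor that feeds the non-canonical branch, averaged 12377, 9692 and 11163 units in ZsG plus, ZsG minus mTEC and ZsG minus cTEC, and its groups overlapped. Tnfrsf1b, a TNF receptor, averaged 8712, 4072 and 19944 units, with every ZsG minus mTEC array below every ZsG minus cTEC array (-2.29 ± 0.83, adjusted p = 0.288). In that comparison 4 of the 16 read lower and 3 higher on every array (all genes 11.8% and 16.6%). Tlr3, a sensor of double-stranded RNA, averaged 2270, 3611 and 2426 units, and ZsG plus alone ran from 218.7 to 10918.

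Of 28 measured further targets of 30, Ier3 passed as lower in ZsG plus than ZsG minus cTEC, and Cxcl13 and Ccl20 as higher in ZsG minus mTEC than ZsG minus cTEC. Of all genes, 0.599% passed as higher and 1.14% as lower in the first comparison, and 0.528% and 0.0989% in the second. Ier3, an early response gene linked to cell survival, read 1802, 1461 and 1879 units in the 3 ZsG plus samples, against 1691, 4167 and 2593 units in ZsG minus mTEC and 12670, 9371 and 11390 units in ZsG minus cTEC, so that, as with Tnfaip3, the cortical arrays lay above all others. Its log2 difference was -2.70 ± 0.54 in ZsG plus (adjusted p = 0.045) and -2.07 ± 0.54 in ZsG minus mTEC (adjusted p = 0.135). That call held under 8 of 19 alternatives (adjusted p 0.0186 to 0.173), and among fits without a single array in the 3 without a ZsG plus array.

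Ccl20, the ligand of CCR6, read 3217, 2432 and 1496 units in the 3 ZsG plus samples, against 5351, 3170 and 3115 units in ZsG minus mTEC and 504.7, 383.5 and 391.6 units in ZsG minus cTEC. Its log2 difference between ZsG minus mTEC and ZsG minus cTEC was 3.15 ± 0.55 (adjusted p = 0.0491), and that between ZsG plus and ZsG minus cTEC 2.42 ± 0.55 (adjusted p = 0.0641). Cxcl13, a B cell attractant and non-canonical target, read 1145, 3122 and 5064 units, 7693, 5936 and 8145 units, and 557.6, 654.9 and 337.9 units in the same order. Its 2 probe sets disagreed in sign between ZsG plus and ZsG minus cTEC (-1.21 and 2.40). Cxcl13 differed by 3.85 ± 0.66 between ZsG minus mTEC and ZsG minus cTEC (adjusted p = 0.0473), where both probe sets were positive. These calls held under 9 and 7 of 19 alternatives (adjusted p 0.00461 to 0.186 for Ccl20 and 0.00362 to 0.167 for Cxcl13), and among fits without a single array Ccl20 held in the 3 without a ZsG plus array and Cxcl13 in those without ZsG plus replicate 1 or 3.

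The brightest targets that did not pass were Cxcl1, Tnfaip2 and Ptgs2. Cxcl1, a neutrophil attractant, averaged 73287 units in ZsG plus, 42328 units in ZsG minus mTEC and 25269 units in ZsG minus cTEC, the order seen for Nfkbia, with a difference of 1.54 ± 0.54 between ZsG plus and ZsG minus cTEC (adjusted p = 0.174). Ptgs2, the inducible cyclooxygenase, averaged 34515, 32648 and 10486 units (1.72 ± 0.48 between ZsG plus and ZsG minus cTEC, adjusted p = 0.109). Tnfaip2 averaged 44096, 26475 and 22394 units. Of the 28 targets, 12 read higher and 4 lower on every ZsG plus array than on every ZsG minus cTEC array, 7 and 2 did so against ZsG minus mTEC, and 13 and 8 between ZsG minus mTEC and ZsG minus cTEC. The shares of all genes were 9.9% and 13.4%, 5.77% and 12.3%, and 16.6% and 11.8%, and in the brightest bin 18.1%, 13.5% and 25.7% were higher. The medians of the list were 0.66, 0.09 and 0.56 in that order.

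Of 18 measured kinases and adaptors of 21, 0 passed the threshold in any comparison by limma, with medians of -0.40 between ZsG plus and ZsG minus mTEC, -0.51 between ZsG plus and ZsG minus cTEC and -0.23 between ZsG minus mTEC and ZsG minus cTEC. At an unadjusted p under 0.05, 2 were higher and 2 lower, 0 and 2, and 0 and 1, against 3.2% and 10.2%, 7.44% and 11.3%, and 8.4% and 3.9% of all genes. Ikbkb, the catalytic subunit of the canonical IkappaB kinase, averaged 24829 units in ZsG plus, 9827 units in ZsG minus mTEC and 16184 units in ZsG minus cTEC, with a difference of 1.34 ± 0.54 between ZsG plus and ZsG minus mTEC (adjusted p = 0.338). On this probe set no ZsG minus mTEC array reached either other group. All 5 Ikbkb probe sets gave a positive difference between ZsG plus and ZsG minus mTEC (0.17 to 1.34), but they disagreed in sign between ZsG minus mTEC and ZsG minus cTEC (-0.72 to 0.61, 3 of 5 negative). Birc2, a ubiquitin ligase that holds NIK in check, averaged 27067, 19403 and 19672 units, and Tab2, an adaptor of the kinase TAK1, averaged 16842, 17934 and 24970 units. The 2 Tab2 probe sets disagreed in sign between ZsG plus and ZsG minus mTEC (-0.09 and 1.15).

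Of 13 measured further inhibitors, 0 passed the threshold in any comparison by limma, and 2, 2 and 1 were higher at an unadjusted p under 0.05 with 0 lower, against 3.2%, 7.44% and 8.4% of all genes higher and 10.2%, 11.3% and 3.9% lower. Tnip1, a partner of A20, averaged 21636, 21753 and 10825 units in ZsG plus, ZsG minus mTEC and ZsG minus cTEC, with a difference of 1.01 ± 0.65 between the ZsG minus groups (adjusted p = 0.628). Nfkbiz, an inducible nuclear IkappaB protein, averaged 17671, 16182 and 18579 units, and Tax1bp1, an adaptor of A20, averaged 14767, 9046 and 10109 units. Every ZsG minus mTEC array lay above every ZsG minus cTEC array for Tnip1, while ZsG plus overlapped both.

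Immediate early genes, which respond to cell handling, were listed beside the pathway. Of 18, 0 passed the threshold in any comparison by limma, and 1 had a positive difference for ZsG plus against ZsG minus mTEC at an unadjusted p under 0.05, with 0 in the other comparisons. Of all genes, 3.2% were higher and 10.2% lower at that level for ZsG plus against ZsG minus mTEC. For ZsG plus against ZsG minus cTEC these shares were 7.44% and 11.3%, and between the ZsG minus groups 8.4% and 3.9%. The summed intensity of the immediate early genes was 542156 to 804670 units on ZsG plus arrays, 449497 to 461824 on ZsG minus mTEC arrays and 440041 to 515328 on ZsG minus cTEC arrays. Every ZsG plus array thus lay above the rest, which was not particular to this list. The same held for the sums of epithelial markers (116958 to 143979, 91018 to 100747 and 31810 to 44572 units), further inhibitors and further targets. It did not hold for kinases and adaptors, for receptors and ligands or for medullary markers. The median differences of the immediate early genes were 0.39, 0.38 and -0.06, close to the 0.38, 0.48 and -0.19 of the NF-kappaB genes. Zfp36, an RNA-decay factor, averaged 97756, 67742 and 53007 units, Jund 97927, 57762 and 50982 units and Jun 74197, 54077 and 55371 units. The direction was not uniform: 7 of the 18 had a negative difference between ZsG plus and ZsG minus cTEC. On every ZsG plus array 5 read higher and 2 (Fos and Fosb) lower than on every ZsG minus cTEC array (all genes 9.9% and 13.4%). Against ZsG minus mTEC 5 read higher and 0 lower (all genes 5.77% and 12.3%). Fos read 27859, 22853 and 10688 units in ZsG plus, against 36748, 32637 and 43837 units in ZsG minus cTEC (-0.98 ± 0.56, adjusted p = 0.374). The other Jund probe set gave -0.64 in that comparison. The part of handling in the Nfkbia readings was not tested.

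**Figure D5:**
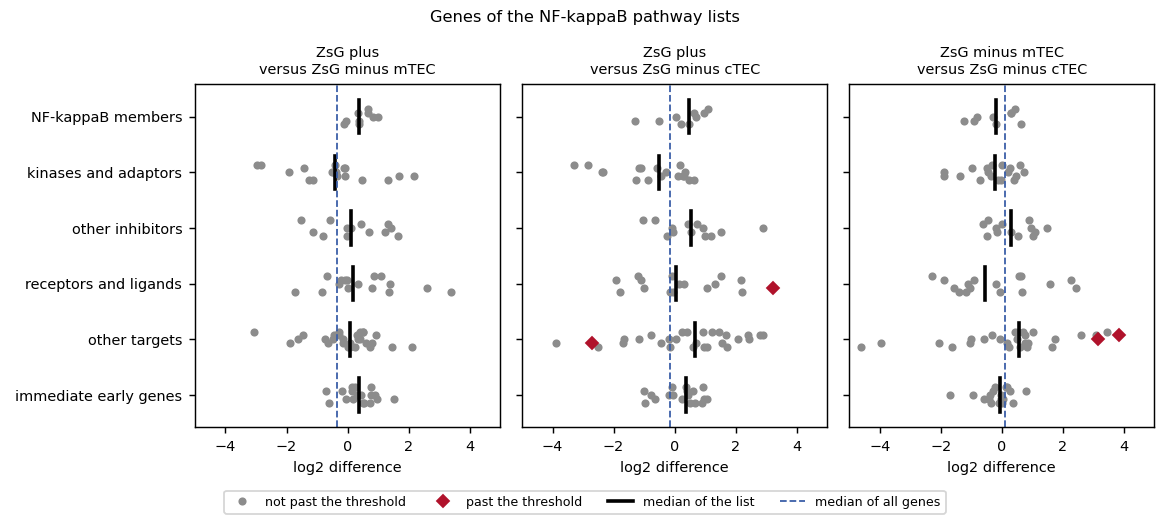
Log2 differences of the genes of 5 NF-kappaB lists and of the immediate early genes (rows) in the 3 comparisons (panels); points are genes, diamonds are genes past the adjusted threshold, thick bars are list medians and the dashed line is the median of all genes. Tnfrsf11b (3.24) and Ier3 (-2.70) pass between ZsG plus and ZsG minus cTEC, and Cxcl13 (3.85) and Ccl20 (3.15) between ZsG minus mTEC and ZsG minus cTEC.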

How the data were processed

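RNA of 9 samples was measured on Affymetrix mouse expression arrays. The authors deposited a linear intensity for each of 45101 probe sets per array; no label or header names their software. Every array had a mean of 1250 once 2% was removed at each end, which is a common trimmed-mean scaling. No detection calls were used here, and 6 probe sets of spiked bacterial controls read 3.77 to 341 units, a range in which low readings are uncertain. Precision is limited by the small number of arrays and by the ZsG plus spread, which enters every interval.

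Values were analysed as log2 of the intensity without an offset. A single symbol was annotated for 34958 probe sets, several for 932 and none for 9211; 34754 of those with a single symbol were found in RefSeq genes of GRCm38.p6, used for names, and 0 had another symbol there. Where a gene had more than 1 probe set (9012 genes), that of the highest mean log2 value stood for it. The tests used limma 3.58.1 under R 4.3.3 (lmFit, eBayes, 1 coefficient per group over all 9 arrays, 6 residual and 3.28 prior degrees of freedom), two-sided, with Benjamini-Hochberg adjustment over the 18194 genes and no fold limit. A value after ± is the SE of a log2 difference, and group averages are geometric means. Named are all members, up to 4 genes of each other list past the threshold in each direction with up to 3 of its brightest others, the label markers, and the 5 genes most like the members' mean profile. The members and lists were chosen with earlier results of these data known. Listed genes without a probe set of their own symbol here, such as Nfkb1, Chuk, Traf3, Ripk1, Ccl19 and Ccl21a, are not analysed here. No 2 arrays held identical values, and steps were tested on simulated data. Alternatives changed the probe set rule, the filter, an offset, the scaling, the arrays in the fit, array weights and a replicate block. Figures were drawn with matplotlib 3.10.9.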

Additional observations from a re-analysis of the deposited data

How the results depend on the processing

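Over 19 alternatives, 0 of 171 member values passed the threshold in each comparison (smallest adjusted p 0.297, 0.103 and 0.0935), and 9, 9 and 4 changed sign; the comparisons are ordered ZsG plus against ZsG minus mTEC, ZsG plus against ZsG minus cTEC, and ZsG minus mTEC against ZsG minus cTEC. Genes past the threshold numbered 40, 317 and 114 in all. Counts were 82, 536 and 43 with all probe sets tested and 101, 660 and 334 with an offset of 50. They were 0, 0 and 548 with only the 6 arrays of the groups compared and 0, 37 and 1220 with array weights. In the order given, quantile normalization gave 15 in the first and 178 in the last comparison, centring 3 and 48, and the mean over probe sets 496 in the second and 216 in the last, as did the brighter 60% of genes with 504 and 176. Without a single array they ranged from 0 to 230, 0 to 735 and 0 to 304. No pairing by replicate number was seen: the 9 same-numbered pairs of deviations had r of -0.015 to 0.013, 0 of them over 0.1, and a replicate block gave 0, 16 and 0 genes. With 3 arrays a group this cannot show that same-numbered samples came from different mice or sorts. The probe set with the highest arithmetic mean, an alternative chosen after seeing the data, gave 51, 352 and 85.

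Signs turned as follows, and the cause was not tested. Between ZsG plus and ZsG minus mTEC, the mean over probe sets gave 0.53 for Tab2, -0.34 for Nfkbiz and -0.05 for Ptgs2. Quantile normalization gave -0.08 for Nfkbiz, -0.19 for Ptgs2 and -0.05 for Zfp36. Centring gave 0.49 for Nfkbie, 0.57 for Tnfaip3, 0.54 for Tab2 and 0.62 for Tnip1, array weights gave 0.11 for Tab2 and 0.21 for Tnip1, and the arithmetic mean rule -0.38 for Map3k14. Between ZsG plus and ZsG minus cTEC, the mean over probe sets gave -0.15 for Nfkbie, -0.45 for Map3k14, -0.04 for Cd40 and 0.01 for Tlr3. Quantile normalization gave -0.25 for Rel, -0.09 for Cd40 and -0.10 for Jun, centring 0.38 for Nfkbiz and 0.36 for Tlr3, and the arithmetic mean rule -1.61 for Map3k14. Between ZsG minus mTEC and ZsG minus cTEC, the mean over probe sets gave 0.16 for Tax1bp1 and -0.19 for Jund, and array weights 0.00 for Jun.

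Without a single array, differences that turned sign ranged as follows. Between ZsG plus and ZsG minus mTEC the ranges were -0.49 to 0.08 for Nfkbie, -0.47 to 0.29 for Tnfaip3, -0.16 to 0.33 for Nfkbiz, -0.01 to 0.15 for Ptgs2, -0.49 to 0.46 for Tab2, -1.80 to 1.02 for Tlr3 and -0.36 to 0.64 for Tnip1. Between ZsG plus and ZsG minus cTEC they were -0.09 to 0.25 for Rel, -0.05 to 0.51 for Rela, -0.02 to 1.09 for Birc2, -0.06 to 0.42 for Cd40, -0.36 to 0.13 for Nfkbiz, -0.03 to 0.84 for Tax1bp1 and -1.23 to 1.59 for Tlr3. Between ZsG minus mTEC and ZsG minus cTEC they were -0.42 to 0.13 for Rela, -0.09 to 0.63 for Nfkb2, -0.72 to 0.05 for Map3k14, -0.24 to 0.20 for Birc2, -0.41 to 0.00 for Cd40 and -0.10 to 0.08 for Jun.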
